A study of Sus scrofa with 4 samples.

Results

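Porcine mature adipocytes (pMA) stimulated with TNF-α for 12 h were compared with unstimulated pMA, gene by gene, on 2 of the 4 arrays of the study. The pMA were derived from the porcine intramuscular preadipocyte (PIP) line, which was established from the longissimus thoracis muscle of a single Duroc pig, so all samples share 1 animal and 1 line. All pMA, stimulated or not, were kept for 4 days in differentiation medium with insulin, dexamethasone, octanoate and oleate. TNF-α was then given at 2.5 µg/mL for 12 h, and the unstimulated pMA received no ligand. The other arrays held undifferentiated PIP in growth medium and pMA stimulated with 100 µM serotonin for 12 h, and they are used here only as reference points. RNA was pooled within a group before labeling, so 1 array stands for each condition, differences could not be checked against replicates, and p-values are not given. The 4 arrays were hybridized on the same slide.

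Each array held 43603 porcine probes under 34853 gene names. A gene was represented by its brightest probe, and its log2 intensity was scaled to the 75th percentile of its array. That percentile was 479 in unstimulated pMA and 559 after TNF-α, and 56.5% and 66.0% of the probes were well above background. A ratio of TNF-α over unstimulated pMA was obtained for 19782 of the 34853 gene names. Of these, 17639 were measured on both arrays, and 2143 were well above background on 1 array only. In the latter case the dim side was raised, where below it, to the lowest intensity that counted as well above background there (19.2 in unstimulated pMA, 14.7 after TNF-α), and the change is given as "at least". The remaining names were dim, that is not well above background, on both arrays (13177) or too close to that limit for a bound (1890). Spots of 1 probe repeated on an array gave a log2 ratio a technical SD of 0.24, which covers the noise within arrays and not the variation between cultures.

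TNF-α is the founding cytokine of its family. Binding to its receptor TNFR1 assembles a signaling complex that activates the IκB kinases, IκBα is degraded, and NF-κB enters the nucleus and induces cytokine, chemokine, adhesion and survival genes together with its own inhibitors. In adipose tissue TNF-α is known as an inflammatory mediator that promotes lipolysis, opposes insulin action and restrains the adipogenic program.

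The adipocyte label was checked against 12 marker genes, of which 10 had a ratio. The median scaled log2 level of those 10 was -3.46 in PIP and -0.32 in unstimulated pMA. A ratio required signal in unstimulated or TNF-α-stimulated pMA but not in PIP. This selection favored pMA, for the fibroblast markers below as well, so the medians are not a test of the label. PLIN2, a lipid droplet coat protein, had an intensity of 630 in PIP and 5138 in unstimulated pMA, and CD36, a fatty acid transporter, had 32.4 and 1084. FABP4, the adipocyte fatty acid carrier, was not well above background in PIP and reached 150 in pMA. However, ADIPOQ (adiponectin) and PLIN1 (perilipin 1), which define mature adipocytes, were not well above background in unstimulated or TNF-α-stimulated pMA. The 8 preadipocyte and fibroblast markers with a ratio also had a higher median level in unstimulated pMA (4.49) than in PIP (3.26). Of 5 leukocyte markers on the array, CD14 was at 891 and 1645, CD79A at 112 and 115, AIF1 at 122 and 75.5 and CD3E at 19.3 and 21.1, and CD163 was dim on both arrays. None of the 4 with a ratio passed 2-fold. Among the endothelial markers CDH5 and TEK were dim on both arrays. In a pooled culture, a change in the number of cells that express a gene cannot be told apart from a change in RNA per cell.

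A 2-fold difference, the cutoff of the study's methods, was passed by 438 gene names that were higher after TNF-α (2.21% of those with a ratio) and by 266 that were lower (1.34%). Of these, 344 and 182 were measured on both arrays and 94 and 84 were bounds. The share of differing genes that were higher was 62.2%. It was 50.2% when arrays were scaled to their median, 49.5% after quantile normalization, 76.8% after scaling to spike-in controls and 72.0% after a model-based background correction, so the balance of higher and lower genes near 2-fold depended on the scaling. That correction (normexp) also drew the ratios of faint probes toward 0, so a bound given as "at least" holds for the main processing only. Larger changes were mostly increases. At 4-fold 86 genes were higher and 14 lower, at 8-fold 33 and 3, and at 16-fold 12 and 0. Among names with a gene symbol, 192 of 6253 were higher (3.07%) and 77 lower (1.23%). The counts within the gene lists below are to be read beside these shares. Most genes hardly differed: 84% of all log2 ratios lay within 0.5 of 0, and the median was 0.005.

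**Figure D1:**
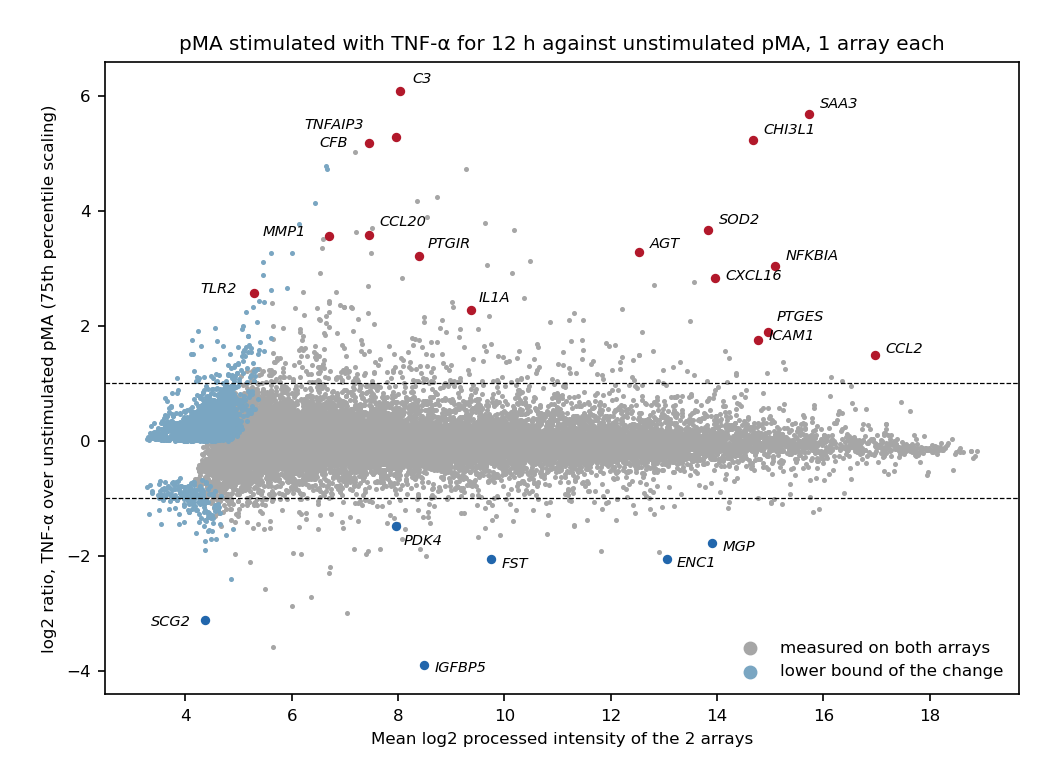
The log2 ratio of TNF-α-stimulated over unstimulated pMA (vertical axis) against the mean log2 intensity of the 2 arrays (horizontal axis), with 1 point for each of the 19782 gene names with a ratio. Gray points were measured on both arrays, blue points are lower bounds and dashed lines mark 2-fold; most points lie close to 0, while C3, SAA3, TNFAIP3, CHI3L1 and CFB stand above a log2 ratio of 5 and IGFBP5 lies lowest at -3.91.

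The complement genes held the largest ratio measured on both arrays. C3, the component on which the complement pathways converge, had an intensity of 29.4 in unstimulated pMA and 2340 after TNF-α, a log2 ratio of 6.09 (68.1-fold). The value was 38.3 after serotonin, and C3 was not well above background in PIP, so of the 4 arrays only that of TNF-α gave a strong signal. All 5 C3 probes were higher, with log2 ratios from 3.79 to 7.02. They are printed below because they read separate stretches of the transcript and rose together, with positions counted along the transcript of the array annotation. The capitals mark 39 bases that the probes at 4451 and 4459 share, so those 2 probes are not independent readings.

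C3 probe at position 3604: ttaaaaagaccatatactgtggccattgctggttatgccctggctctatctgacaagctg

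C3 probe at position 4451: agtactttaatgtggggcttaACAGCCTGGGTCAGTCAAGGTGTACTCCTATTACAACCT

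C3 probe at position 4459: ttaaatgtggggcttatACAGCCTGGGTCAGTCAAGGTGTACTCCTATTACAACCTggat

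C3 probe at position 4558: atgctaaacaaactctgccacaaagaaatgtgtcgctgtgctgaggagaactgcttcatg

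C3 probe at position 4726: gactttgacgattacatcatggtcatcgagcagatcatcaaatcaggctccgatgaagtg

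The probes at 4451, 4459 and 4726 were dim before stimulation and at least 85.2-fold, 98.1-fold and 130-fold higher after it. The probe at 3604, farthest from the 3′ end, read 31.8 and 513, a log2 ratio of 3.79. C3 thus differed in size between probes but not in direction. Its unstimulated signal was faint, and its log2 ratio was 4.31 after normexp, below the 5.66 of SAA3, which also exceeded C3 in the median over probes (6.91 and 6.41).

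Of 18 complement genes with a ratio, 7 were at least 2-fold higher and 1 lower, and their median log2 ratio was 0.28, against 0.005 over all genes. CFB (factor B), which joins C3b in the alternative pathway convertase, had 26.9 in unstimulated pMA and 1148 after TNF-α (log2 ratio 5.19) and was not well above background in PIP. CFD (factor D or adipsin), the protease that cleaves factor B, went from 42 to 259 (2.40). These are the central members of the alternative pathway. Among the classical pathway proteases, C1S went from 3275 to 10755 (1.49), C1R from 23839 to 66338 (1.25) and C2 from 939 to 2593 (1.24). SERPING1, the C1 inhibitor that restrains these proteases, had a log2 ratio of 1.24 as well. C9, a pore-forming terminal component, was at 36.8 in unstimulated pMA and not well above background after TNF-α, at least 2.93-fold lower on the only probe that gave a ratio. After normexp CFD had 1.24 and C1S 1.47, and C9 was under 2-fold, as C2 was in the median over its probes (0.85). After serotonin, read against the same unstimulated array, C1S, C1R, C2 and SERPING1 had log2 ratios of -0.65, -0.11, -0.73 and -1.05, whereas CFD had 2.59.

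Acute-phase and secreted inflammation markers gave 3 increases and no decrease among 16 genes with a ratio, and their median was 0.15. SAA3, a serum amyloid A apolipoprotein, had 7033 in unstimulated pMA and 423747 after TNF-α, with 18204 after serotonin and 556 in PIP. Its log2 ratio was 5.69 (51.6-fold), and its 5 probes ranged from 5.69 to 7.57. The array names this transcript serum amyloid A2, and SAA3 is the symbol now paired with it in RefSeq. The brightest probe, on which the gene is read, lies at position 219, and 3 further probes start within a few bases of each other and share the 35 bases in capitals.

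SAA3 probe at position 126: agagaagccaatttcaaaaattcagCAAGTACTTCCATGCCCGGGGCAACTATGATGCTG

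SAA3 probe at position 128: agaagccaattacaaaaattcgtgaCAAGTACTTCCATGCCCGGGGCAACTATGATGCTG

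SAA3 probe at position 135: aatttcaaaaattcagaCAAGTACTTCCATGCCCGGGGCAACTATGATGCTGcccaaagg

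SAA3 probe at position 219: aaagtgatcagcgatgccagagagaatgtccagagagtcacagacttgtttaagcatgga

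The overlapping probes read 191-fold, 121-fold and 143-fold higher, and the separate probe at 219 gave the smallest change. Genes of the serum amyloid A family have similar sequences, and whether these probes also bind other members was not tested.

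CHI3L1, a chitinase-like glycoprotein secreted in inflammation, went from 3952 to 174362 (log2 ratio 5.24, 37.8-fold), and the values in PIP and after serotonin were 3068 and 4873. Its other probe, shown because its letters come from a separate part of the transcript, read 620 and 32368 (5.48).

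CHI3L1 probe at position 911: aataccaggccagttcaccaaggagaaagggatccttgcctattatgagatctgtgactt

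ITIH4, an inter-α-trypsin inhibitor heavy chain of the acute-phase response, was dim before stimulation and rose at least 6.3-fold, and ITIH2 of the same family at least 9.71-fold higher. Each of them rests on the only probe that gave a ratio, of 3 and 2. The other acute-phase genes did not follow. HP (haptoglobin) had a log2 ratio of -0.18 and LCN2 (lipocalin 2) of 0.13, and TNFAIP6, a hyaluronan-binding protein named for its induction by TNF-α, had 0.69.

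The receptors and the proximal kinases of TNF-α signaling hardly differed. None of 17 genes with a ratio passed 2-fold in either direction, their median was 0.04 and their range -0.29 to 0.46. TNFRSF1A, which encodes TNFR1, had 12460 in unstimulated pMA and 12866 after TNF-α (log2 ratio -0.18), and TNFRSF1B, which encodes TNFR2, had 241 and 256 (-0.13). TNF itself had 517 and 623 (0.04). The signs of TNFRSF1B and TNF changed under 1 of the 9 processing alternatives each.

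The NF-κB list stood apart from all genes. Of 8 genes with a ratio, 5 were at least 2-fold higher and none lower, and the median was 1.37. TNFAIP3 (A20), a ubiquitin-editing enzyme that shuts off the receptor complex, had 36.6 in unstimulated pMA, 36.7 in PIP, 207 after serotonin and 1679 after TNF-α. Its log2 ratio was 5.29 (39.2-fold) on a single probe. NFKBIA, which encodes IκBα, had 9480 in PIP, 11253 in unstimulated pMA, 52039 after serotonin and 108038 after TNF-α, a log2 ratio of 3.04 with 3 probes from 3.04 to 3.47. The probes on which these 2 feedback inhibitors were read are shown.

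TNFAIP3 probe at position 469: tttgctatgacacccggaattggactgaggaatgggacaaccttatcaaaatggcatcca

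NFKBIA probe at position 865: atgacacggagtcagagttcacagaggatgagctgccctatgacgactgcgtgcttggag

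NFKBIE, which encodes IκBε, went from 2966 to 12865 (log2 ratio 1.89), and TNIP1, a partner of A20, from 432 to 1491 (1.56). In this list of NF-κB subunits and feedback inhibitors, 4 of the 5 that were higher encode inhibitors, a share not set against the list's makeup. The fifth was NFKB1, the p105 precursor of the p50 subunit, from 396 to 1040 (1.17). RELA, the transactivating p65 subunit, had 1599 and 1325 (-0.50) with 3 probes from -0.50 to 0.16, and its sign changed under 1 alternative, and NFKB2 had -0.56. TNFAIP3, NFKBIA, NFKBIE, TNIP1 and NFKB1 stayed past 2-fold under all 9 alternatives. The list's median above all genes ranged from 0.99 to 1.41 over them.

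Of 17 apoptosis regulators with a ratio 2 were at least 2-fold higher and none lower, beside 3.07% and 1.23% of all symbols. Their median was 0.12. CFLAR, the caspase-8 inhibitor c-FLIP, had 3273 and 10789 (log2 ratio 1.50), but its 7 probes ranged from 0.40 to 1.50, and the median over probes was 0.51. BCL2A1, an anti-apoptotic BCL2 relative, was at least 2.2-fold higher, from a dim value to 60.5, but had 0.20 after normexp. TNFSF10 (TRAIL) had -0.98, FAS 0.20 and CASP8 -0.15.

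**Figure D2:**
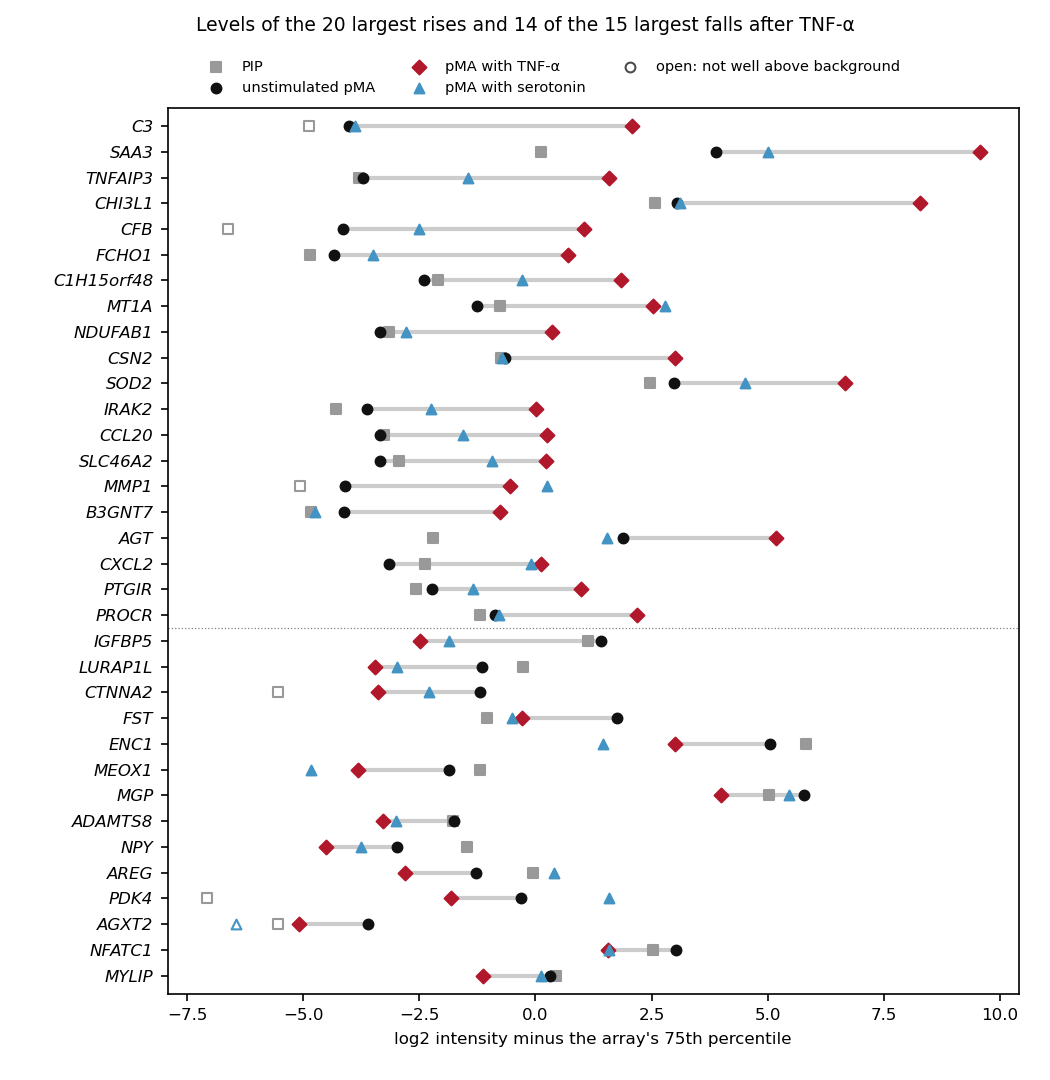
Scaled log2 levels of the 20 largest rises and 14 of the 15 largest falls measured on both arrays, with 1 symbol for each of the 4 arrays and open symbols where the probe was not well above background. The gray bar joins unstimulated and TNF-α-stimulated pMA; for MT1A and CXCL2 the serotonin array lies close to the TNF-α array, for C3, CHI3L1, AGT and PROCR it lies close to unstimulated pMA.

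Chemokines, which attract leukocytes, gave 6 increases and no decrease among 20 genes with a ratio, and their median was 0.38. CCL20, a ligand of CCR6, went from 47.1 to 660 (log2 ratio 3.59), and CXCL2, which attracts neutrophils, from 53.7 to 605 (3.27). CXCL16, a scavenger receptor and CXCR6 ligand, went from 5538 to 46363 (2.84), with values of 7383 in PIP and 5385 after serotonin. CXCL12, the ligand of CXCR4, had 20 and 123 (2.40), close to background on the unstimulated array. CXCL10, a ligand of CXCR3, went from 341 to 1538 (1.95) and CCL2 (MCP-1), the main monocyte attractant of adipose tissue, from 70906 to 232738 (1.49). CCL5 was at 3138 and 6087 (0.73), and IL8 was dim before stimulation and at least 1.3-fold higher after it, at an intensity of 36.4. CXCL12 was under 2-fold under 1 alternative (0.91), whereas the other 5 stayed past it.

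The serotonin array, set against the same unstimulated pMA, had log2 ratios of 1.79 for CCL20 and 3.06 for CXCL2. It had -0.28 for CXCL16, -1.14 for CXCL10, -0.19 for CCL2 and -1.04 for CCL5. The 2 stimuli share that array, so the values are only set side by side.

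Cytokines and colony-stimulating factors gave 2 increases and 1 decrease among 20 genes with a ratio, with a median of 0.33. IL1A, the alarmin interleukin 1α, had 277 in unstimulated pMA, 1575 after TNF-α and 4528 after serotonin, so that its TNF-α log2 ratio was 2.28 with both probes close together. IL6 went from 833 to 3009 (1.63), and both probes gave nearly the same ratio, whereas the serotonin array read 727. CSF3, the granulocyte colony-stimulating factor, fell from 37.1 to 21.5 (-1.01), a faint signal that was under 2-fold in 2 alternatives. CSF1, which maintains macrophages, had 0.84. SOCS3, a feedback inhibitor of cytokine receptors, had 0.57 with its other probe at -0.28, and LIF was at least 1.44-fold higher.

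Among the adhesion molecules, ICAM1, the integrin ligand on which leukocytes adhere, went from 14022 to 55679 (log2 ratio 1.76), and it was at 11994 in PIP and 14439 after serotonin. VCAM1, its counterpart for VLA-4, was dim on the other 3 arrays and at 75.9 after TNF-α, at least 3.37-fold higher. SELE (E-selectin), near background, was at least 2.02-fold lower. CTNNA2, a neuronal catenin, went from 208 to 53 (-2.20), with a serotonin log2 ratio of -1.10. ITGA2, an integrin chain, had 1.21. In all, 3 of 21 adhesion genes were higher and 2 lower, beside 3.07% and 1.23% of all symbols, and the median was 0.09. Under normexp VCAM1 (0.96), ITGA2 (0.25) and SELE (-0.32) were under 2-fold. TLR2, a receptor for bacterial lipopeptides, was dim in unstimulated pMA and at 134 after TNF-α, at least 5.96-fold higher. IRAK2, a kinase below the Toll-like and IL-1 receptors, went from 39 to 562 (3.63), and NLRP3, the inflammasome sensor, from 199 to 486 (1.06). These were the 3 of 20 pattern recognition genes that passed 2-fold, and the median of that list was 0.19. NLRP3 was under 2-fold in 2 alternatives.

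The listed interferon-related genes moved little. A positive ratio was found for 24 of 30 interferon-stimulated genes and for 12 of 16 IRF and STAT genes. Only PARP14 (1.26, and 0.97 after normexp) of the 30 passed 2-fold, beside 3.07% of all symbols that were higher. The median of the interferon-stimulated genes was 0.24. MX1, an antiviral GTPase, had 98693 and 140254 (0.28), and ISG15, a ubiquitin-like modifier, had 82885 and 98250 (0.02, with a changed sign under 1 alternative). In PIP they had 239275 and 217868. None of the 16 IRF and STAT genes passed 2-fold, with IRF1 at 0.76. Of 18 genes of MHC class I presentation, 16 had a positive ratio and 3 were at least 2-fold higher. Their median was 0.47, against 0.24 for the interferon-stimulated genes and 0.25 for the IRF and STAT genes. The immunoproteasome subunit PSMB9 went from 2762 to 7720 (1.26), PSMB8 from 493 to 1189 (1.04) and the class I heavy chain SLA-3 from 53502 to 129233 (1.05). TAP1, the peptide transporter, had 0.95, PSMB10 had 0.82 and B2M, the light chain, 0.14. Both PSMB8 and SLA-3 were under 2-fold in 2 alternatives. SLA class I genes are near-identical copies, and their probes may not separate them.

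**Figure D3:**
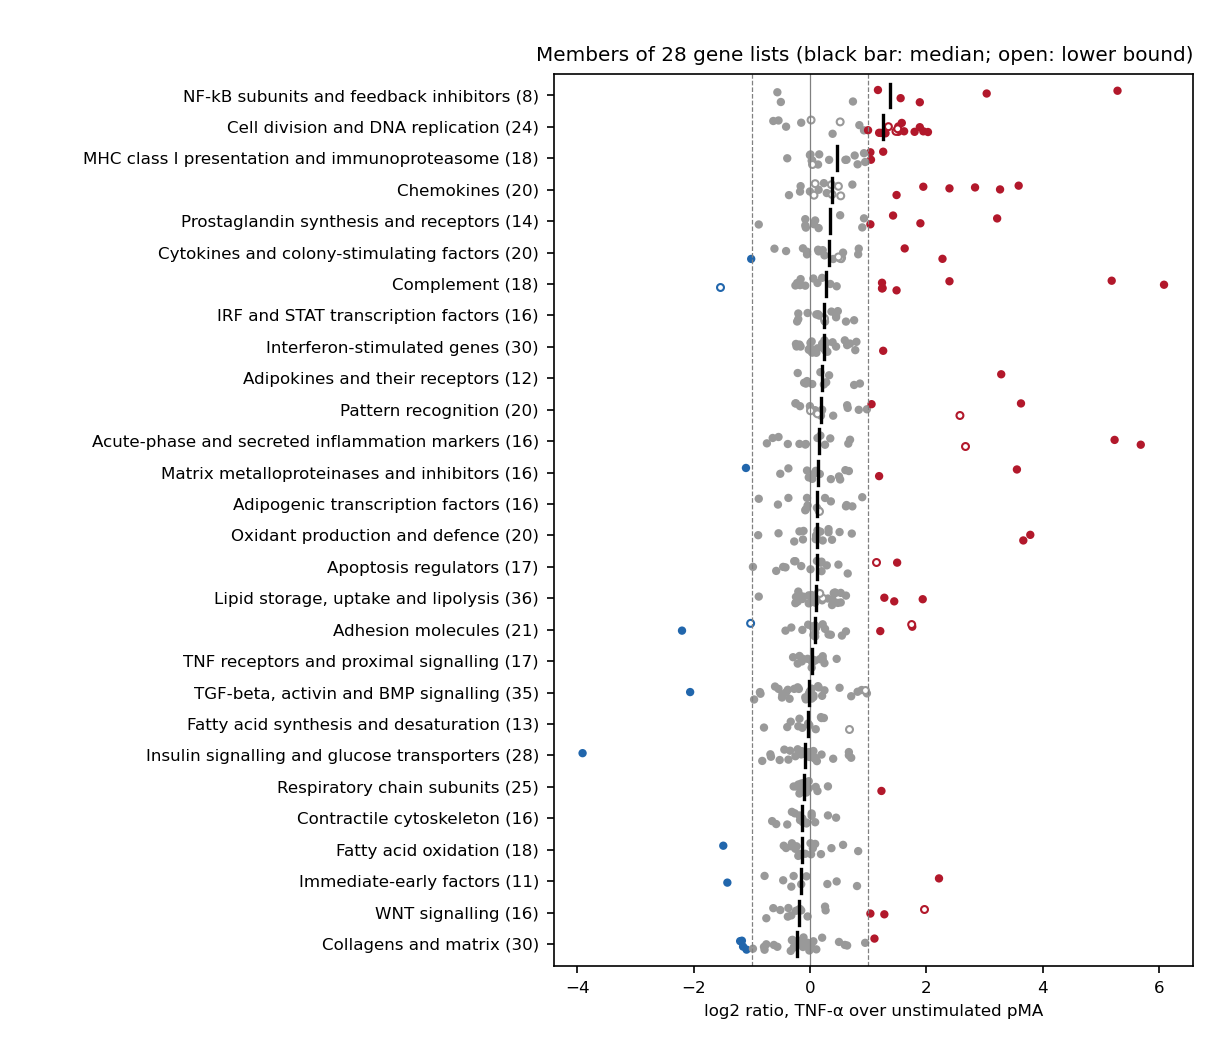
Log2 ratios of TNF-α-stimulated over unstimulated pMA (horizontal axis) for the members of 28 gene lists (rows, with the number of members that had a ratio). Filled points were measured on both arrays and open points are lower bounds, red and blue mark members past 2-fold, and black bars are medians; the NF-κB and cell division lists have medians of 1.37 and 1.26, and the other lists lie between -0.23 and 0.47.

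Prostaglandin genes gave 4 increases and no decrease among 14 genes with a ratio, with a median of 0.34. PTGIR, the prostacyclin receptor, went from 102 to 1106 (log2 ratio 3.22), PTGFR, the prostaglandin F receptor, from 383 to 1202 (1.43) and PTGES, the terminal synthase of prostaglandin E2, from 15348 to 67020 (1.90). PTGS1 (COX-1) had 1.04 and was under 2-fold in 3 alternatives, and PTGS2 (COX-2), the inducible form, went from 387 to 863 (0.93). On the serotonin array PTGS2 was at 4484 (3.29) and PTGIR at 223 (0.89).

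Of 20 genes of oxidant production and defense with a ratio, 2 passed 2-fold, both higher. SOD2, the mitochondrial manganese superoxide dismutase, had 2837 in PIP, 3778 in unstimulated pMA, 12906 after serotonin and 56360 after TNF-α, a log2 ratio of 3.67 with 7 probes from 3.29 to 4.04. MT1A, a metallothionein that binds zinc and copper, went from 199 to 3222 (3.79) and was at 3937 after serotonin. The other 18 were under 2-fold, among them the cytosolic SOD1 (0.22), HMOX1 (0.11) and GPX3 (-0.89), and the median was 0.12. NOS2, a nitric oxide synthase, had 31.7 and 61.2 (0.72) on its brightest probe, but its 4 probes ranged from 0.03 to 4.76. Among the 25 listed respiratory chain subunits only COX7A1, the muscle and heart form of a complex IV subunit, passed 2-fold (4921 and 13480, 1.23), and the median was -0.10. C1H15orf48, a small mitochondrial protein, went from 91 to 2013 (4.24) with 4 probes from 3.99 to 4.58. NDUFAB1, the mitochondrial acyl carrier protein and a complex I subunit outside that list, had 47 and 712 (3.70), but that probe comes from a single cDNA clone. Its scaled log2 level in unstimulated pMA was -3.35, against a median of 6.21 for the 25 listed subunits. Whether the probe reads this gene was not tested.

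Proteases of the extracellular matrix and their inhibitors gave 2 increases, both of proteases, and 1 decrease, of an inhibitor. There were 16 genes with a ratio, and their median was 0.14. MMP1, the interstitial collagenase, had 28 in unstimulated pMA, 385 after TNF-α (log2 ratio 3.56) and 668 after serotonin, and it was dim in PIP. ADAMTS4, an aggrecan-cleaving protease, went from 78.6 to 210 (1.19), and TIMP3, a tissue inhibitor of these enzymes, from 122 to 67 (-1.10). ADAMTS4 had 0.72 and TIMP3 -0.78 after normexp, and TIMP3 was also under 2-fold with spike-in scaling. MMP3 was dim on all 4 arrays, and MMP9 had 0.08. ADAMTS8, a protease outside this list, had -1.53 and was under 2-fold after normexp.

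Of 30 collagen and matrix genes with a ratio, 21 were below 0, 4 were at least 2-fold lower and 1 higher, and the median of -0.23 was the lowest of the 28 lists. HAS2, a hyaluronan synthase, went from 1672 to 852 (-1.20), LOXL1, which cross-links elastin, from 26411 to 13682 (-1.17), ASPN, a small leucine-rich proteoglycan, from 11085 to 5818 (-1.15) and COL5A3, a collagen V chain, from 515 to 282 (-1.09). VCAN, the proteoglycan versican, went from 868 to 2197 (1.11). COL1A1 had -0.78 and DCN (decorin) -0.79, under 2-fold. COL5A3 was under 2-fold in 2 alternatives. The preadipocyte and fibroblast markers, which include collagens, had a median of -0.31 with 6 of 8 genes below 0 and 1, PDGFRA (1.39), at least 2-fold higher. Their median level was 3.26 in PIP, 4.49 in unstimulated pMA and 3.93 after TNF-α, and their part in the matrix values was not tested. MGP, matrix Gla protein, an inhibitor of calcification, went from 26218 to 8970 (-1.77) with 5 probes from -1.88 to -1.59, and it was at 24920 after serotonin. The contractile genes had a median of -0.13 and none of 16 passed 2-fold, with ACTA2 at -0.17 and CNN1 at -0.58.

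The adipocyte markers had 9 of 10 genes above 0 and a median of 0.38, with 3 at least 2-fold higher and none lower. Of 16 adipogenic transcription factors none passed 2-fold, and the median was 0.13. PPARG, the master regulator of adipogenesis, had 51.7 in unstimulated pMA and 112 after TNF-α (0.90) with 3 probes from 0.67 to 0.90, whereas CEBPA, its partner, had 544 and 346 (-0.88) on 1 probe. CEBPD had -0.08, with a changed sign under 1 alternative, and SREBF1 -0.37.

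Of 36 genes of lipid storage, uptake and lipolysis, 3 were at least 2-fold higher and none lower, with a median of 0.11. CIDEC, a lipid droplet protein of adipocytes, had 20 in PIP, 272 in unstimulated pMA and 1216 after TNF-α (log2 ratio 1.94). FABP4 went from 150 to 478 (1.45) with 6 probes from 1.04 to 1.61, and LPL, lipoprotein lipase, from 958 to 2715 (1.28). The paper lists FABP4 as upregulated by TNF-α on the array. Its RT-qPCR over independent experiments, however, gave a significant decrease of FABP4. The paper's array lists were not compared in full. They give IL6, CXCL10, CCL5, PTGS2 and IRF1 as lower after TNF-α, whereas their ratios here were positive. C3, TNFAIP3 and CXCL2 are listed as unchanged by TNF-α, and EGR3, SELE and C9 as higher, also unlike here. CCL2, CXCL12 and CFB are listed as higher, as here. The RT-qPCR gave significant increases of C3, TNFAIP3, CXCL2, IL6 and PPARG after TNF-α. The serotonin array read 388 for CIDEC, 26 for FABP4 and 6026 for LPL. The lipases LIPE (0.09) and PNPLA2 (-0.25), the droplet protein PLIN2 (0.08) and CD36 (0.48) were under 2-fold.

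None of the 13 genes of fatty acid synthesis passed 2-fold, and their median was -0.03, which lay on either side of the median of all genes depending on the processing. FASN, fatty acid synthase, had 13247 and 17740 (0.20), SCD, stearoyl-CoA desaturase, 22364 and 22717 (-0.20) with 9 probes from -0.24 to -0.05, and ACACA, acetyl-CoA carboxylase, had -0.79. In fatty acid oxidation PDK4, the kinase that turns off pyruvate dehydrogenase, went from 384 to 160 (-1.49), with 8 probes from -1.49 to -0.58. It was dim in PIP and at 1708 after serotonin (1.91). CPT1A, which brings fatty acids into mitochondria, had 20844 and 43224 (0.83), with 6 probes from 0.71 to 1.56.

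Insulin signaling and glucose transport held the largest fall measured on both arrays. IGFBP5, a binding protein of the insulin-like growth factors, had 1139 in PIP, 1284 in unstimulated pMA, 155 after serotonin and 100 after TNF-α, a log2 ratio of -3.91 (15-fold lower). It is read on a single probe.

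IGFBP5 probe at position 665: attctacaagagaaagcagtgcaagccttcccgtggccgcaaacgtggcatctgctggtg

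No other gene among the 28 of this list passed 2-fold, and the median was -0.08. SLC2A4, the insulin-responsive transporter GLUT4, had 180 and 334 (0.67), IRS1 had 114 and 97.8 (-0.44) and INSR had -0.05, with a changed sign under 1 alternative. Among 12 adipokines and receptors with a ratio, AGT, angiotensinogen, was the only one past 2-fold. It had 111 in PIP, 1765 in unstimulated pMA, 1659 after serotonin and 20152 after TNF-α, a log2 ratio of 3.29 with 5 probes from 3.01 to 3.48. LEP (leptin) had 0.28 and NAMPT (visfatin) 0.33.

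Among developmental signals, 1 of 35 TGF-β, activin and BMP genes was at least 2-fold lower and 3 of 16 WNT genes were higher. Of 11 immediate-early factors, 1 was higher and 1 lower. Over all symbols 3.07% were higher and 1.23% lower. FST (follistatin), the activin antagonist, went from 1619 to 455 (-2.06), the only one of 35 TGF-β, activin and BMP genes past 2-fold, and it was at 400 after serotonin and 248 in PIP. That list's median was -0.02, and it lay on either side of the median of all genes depending on the processing. In the WNT list of 16 genes, WIF1, a secreted WNT inhibitor, was at least 3.92-fold higher from a dim value, WNT2 went from 54 to 153 (1.28) and WISP1, a matricellular protein, from 341 to 821 (1.04), whereas the median was -0.18. After normexp these 3 had 0.79, 0.62 and 0.92, and WISP1 was also under 2-fold with median scaling. Immediate-early factors had a median of -0.15, with NR4A2, a nuclear receptor, at 73.8 and 401 (2.22) and EGR3 at 54.2 and 23.6 (-1.42, and -0.78 after normexp). Both had serotonin log2 ratios of the same sign, 2.81 and -1.38.

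Cell division genes were the other list that stood apart. Of 24 genes with a ratio 15 were at least 2-fold higher and none lower, and the median log2 ratio was 1.26. CCNB1 (cyclin B1), which drives entry into mitosis, had 4925 in PIP, 152 in unstimulated pMA, 87.1 after serotonin and 620 after TNF-α, a log2 ratio of 1.80. TOP2A, the topoisomerase of dividing cells, had 1296 in PIP, 33.6 in unstimulated pMA and 152 after TNF-α (1.95), and it was dim after serotonin. PBK, a mitotic kinase, went from 86 to 412 (2.03) and PCLAF, a PCNA-binding protein, from 229 to 993 (1.89), with PIP at 2591 and 6517. For these 4 genes the TNF-α array thus lay above unstimulated pMA and well below PIP.

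CDK1 (1.52), CDCA3 (1.52), KIF4A (1.62), MCM3 (1.58), MCM4 (1.19), BIRC5 (1.30), CENPF (1.22) and CENPE (1.00) were also past 2-fold, and PLK1, CDC20 and CCNB2 were at least 2.85-fold, 2.78-fold and 2.55-fold higher from dim values. The proliferation marker MKI67 was dim before stimulation and at least 1.44-fold higher after it, at an intensity of 32.3. The mitotic kinase AURKB had -0.15, and the inhibitors of the cell cycle CDKN1A, CDKN1B and CDKN2B had -0.54, -0.41 and -0.63. The median level of the 24 genes on the scaled log2 axis was 1.67 in PIP, -2.35 in unstimulated pMA, -0.90 after TNF-α and -2.75 after serotonin. Under normexp 8 of the 15 genes were below 2-fold, namely TOP2A (0.92), KIF4A (0.80), CENPF (0.74), MCM3 (0.66), CENPE (0.60), PLK1 (0.45), CCNB2 (0.42) and CDC20 (0.34). CENPE was so in 4 further alternatives and KIF4A in 1, and the list's median above all genes ranged from 0.71 to 1.34.

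**Figure D4:**
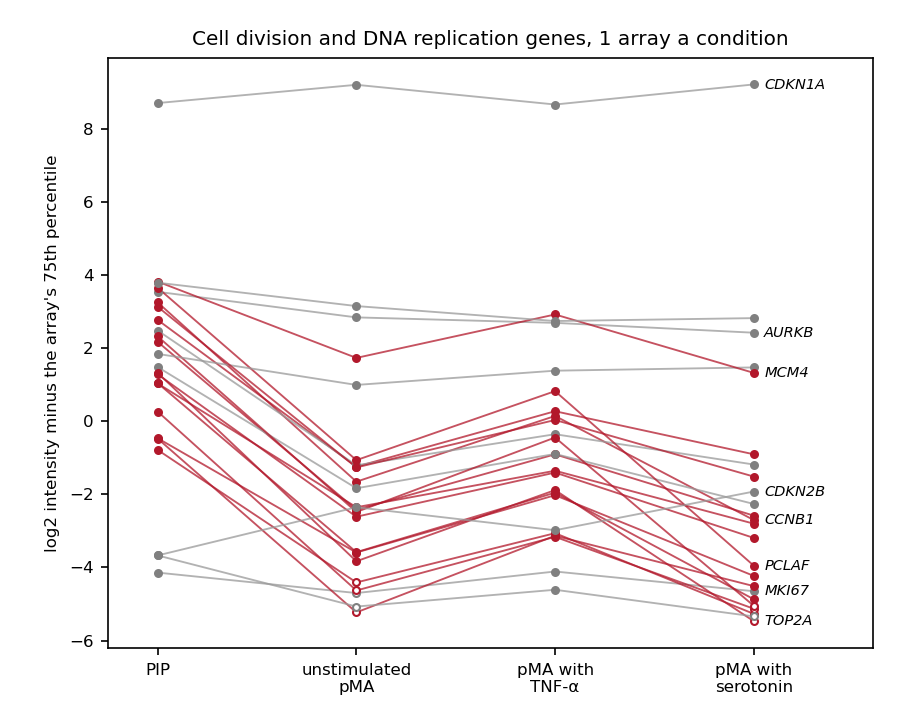
Scaled log2 levels (vertical axis) of the 24 cell division and DNA replication genes on the 4 arrays (horizontal axis), 1 line for each gene and open points where the probe was not well above background. Red lines are the 15 genes at least 2-fold higher after TNF-α than in unstimulated pMA; their TNF-α points lie between those of unstimulated pMA and PIP, and the median of all 24 was 1.67 in PIP, -2.35 in unstimulated pMA and -0.90 after TNF-α.

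Further genes among the largest changes belonged to no list. FCHO1, an adaptor of clathrin-mediated endocytosis, went from 23.7 to 907 (5.03), PROCR, the endothelial protein C receptor, from 261 to 2554 (3.07), SLC46A2, a solute carrier, from 47 to 656 (3.58) and B3GNT7, a glycosyltransferase, from 27.5 to 328 (3.35). FCHO1 and B3GNT7 were each read on a single probe, close to the limit of 19.2 in unstimulated pMA. Their lowest log2 ratios over the alternatives were 3.24 and 1.83. The probes of PROCR and SLC46A2 did not all concur. The 3 probes of PROCR ranged from 0.48 to 3.07, and the 2 of SLC46A2 were at 1.11 and 3.58. CSN2 (β-casein), a milk protein, had 302 and 4513 (3.68) on its brightest probe, but its 6 probes with a ratio ranged from -0.12 to 3.68 and their median was -0.05, so that its increase rested on 1 probe. VPREB1, a surrogate light chain of pre-B cells, MYBPH, a myosin-binding protein, KANK4, GCNT7 and ZFP37 were dim before stimulation, and they rose at least 7.36-fold, 5.35-fold, 3.83-fold, 3.34-fold and 3.13-fold. Under normexp the last 4 had log2 ratios of 0.97, 0.74, 0.76 and 0.71.

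Among the falls, ENC1, an actin-binding protein, went from 15980 to 4512 (-2.05) with its other probe at -1.46. ENC1 was at 29059 in PIP and 1544 after serotonin (-3.61). LURAP1L (-2.30), MEOX1, a homeobox factor (-1.97), NFATC1, a calcineurin-regulated factor (-1.46, with 1 of 3 probes at -0.15), and MYLIP, the ubiquitin ligase that degrades the LDL receptor (-1.43), were also lower. AREG, an EGF receptor ligand, went from 196 to 79.8 (-1.52) and was at 740 after serotonin (1.68). The neuropeptide NPY had -1.52, the protease ADAMTS8 -1.53 and the aminotransferase AGXT2 -1.48. These 3 and AREG were under 2-fold after normexp. SCG2, a secretory granule protein, had 109 in unstimulated pMA, 45.5 after serotonin and a dim value after TNF-α, at least 8.63-fold lower. ANGPT4, CLDN14, PPP2R2B and ALPK2 were at least 5.27-fold, 3.25-fold, 3.12-fold and 2.96-fold lower by the same limit. Without the limit SCG2 had -5.00, and under normexp -1.42, whereas the other 4 were under 2-fold there. The serotonin array, set against the same unstimulated pMA, gave LURAP1L, MEOX1, NFATC1 and ADAMTS8 log2 ratios of -1.82, -2.98, -1.44 and -1.25. AGXT2, ANGPT4, CLDN14 and PPP2R2B were dim there, with -1.51, -2.27, -1.57 and -1.69 or lower. MYLIP, NPY and ALPK2 had -0.18, -0.78 and -0.85. The part of the shared unstimulated array in these falls was not tested.

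Genes read by several probes show how far the choice of probe mattered. Of the 192 higher symbols, 90 had at least 2 probes with a ratio. In 84 of them all probes pointed the same way, and in 52 all probes passed 2-fold. Of the lower symbols 29 had at least 2 such probes, with 27 in 1 direction and 14 entirely past 2-fold. These counts include the probe that represents the gene, and some probes overlap, so not all are independent readings.

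**Figure D5:**
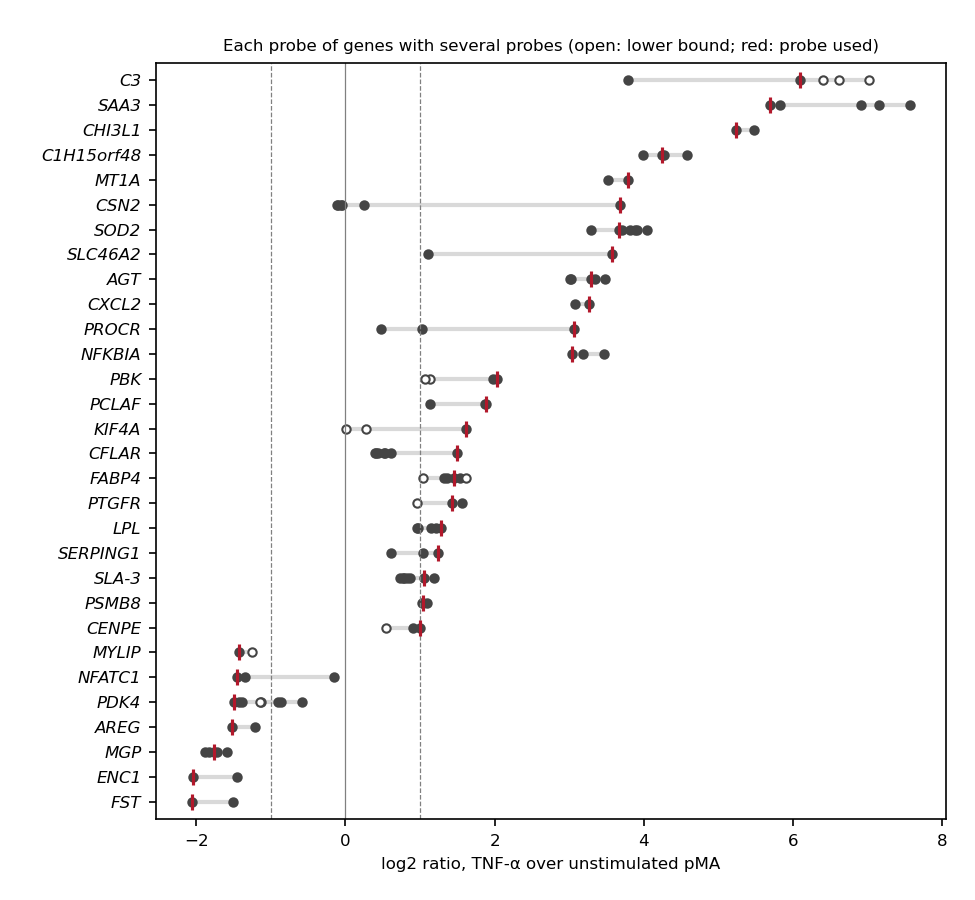
Log2 ratio (horizontal axis) of every probe of 30 named genes with several probes, with filled points measured on both arrays, open points for lower bounds and a red mark on the probe that represents the gene. The probes of SOD2, AGT, NFKBIA and MGP lie close together, while CSN2 has 1 probe at 3.68 and the others near 0, and the probes of PROCR range from 0.48 to 3.07.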

How the data were processed

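RNA of PIP, unstimulated pMA, pMA with TNF-α and pMA with serotonin was hybridized to 4 porcine Agilent arrays in 1 color (Cy3), 1 array of pooled RNA per group. The study's methods mention both a mouse array scanned with GenePix and a two-color array, whereas the deposited files are 1-color porcine scans. The authors deposited scanner files, made with Agilent Feature Extraction 10.7.3.1 per the labels, whose processed intensity is background-subtracted, and a value table. The deposited value table holds the same intensity signal divided by 1 number per array (455 for unstimulated pMA, 535 after TNF-α), and served as an alternative.

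Control spots and outlier spots (1 on the unstimulated array, 4 on the TNF-α array) were left out, spots of 1 probe were averaged, and log2 intensity minus the array's 75th percentile was used. The brightest probe over the 4 arrays stood for a gene name. No spot was saturated. Names came from RefSeq (4650 names, through the array's accessions), the array file (3003), the array's full gene names (11) and spelling variants (7), the last 2 kinds matched after the files were seen, and 27164 had no symbol. Probe sequences and transcript positions are those of the array files, which give no genome build. The median of 5 bright spike-in probes differed by -0.08 between the arrays (log2, TNF-α minus unstimulated). The number of arrays limits precision.

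Named genes are the 20 largest rises and 15 largest falls measured on both arrays, the 10 and 5 largest bounded ones, and list members past 2-fold or set as key. A few genes that this rule names are not reported here. The gene lists (28 pathway and 5 marker lists) were written from general knowledge, and they and the comparison were chosen with earlier results of these data known. Members named besides were chosen after their values were seen. The ratio, bound and count steps were tested on simulated data. Alternatives were median, quantile and spike-in scaling, normexp background correction (limma 3.58.1 in R 4.3.3, offset 50), other filters, other probe choices, the value table and a 4-fold limit. Python 3.11.15 with pandas 2.3.3 and numpy 2.4.6 was used.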

Additional observations from a re-analysis of the deposited data

How the results depend on the processing

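Of the 82 named genes at least 2-fold higher after TNF-α, 54 stayed past 2-fold under every alternative that gave them a value, and of the 29 lower ones 15 did. The direction of 1 of them changed: CSN2 had a log2 ratio of -0.05 as the median over its probes. The counts of genes past 2-fold, 438 higher and 266 lower, depended on the scaling and on faint probes. The lower count was 440 after quantile normalization and 165 with scaling to spike-in controls. Normexp background correction gave 193 higher and 75 lower, no filter on dim probes and no bound gave 1917 and 1318, and a 4-fold limit left 86 and 14. The higher counts ranged from 344 to 545 under the remaining alternatives. The median of all genes was -0.08 with median scaling and 0.10 with spike-in scaling. Of the 28 pathway lists, 19 had a median above that of all genes, and 19 to 21 did under the alternatives. No paired analysis was possible because each group has 1 array of pooled RNA and all samples carry the same replicate number. The faintest signal well above background differed between the arrays (19.2 and 14.7), so bounds on rises and falls start from different limits. Faint genes such as NPY, AGXT2, CSF3, C9 and SELE lie close to that limit.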

Other observations

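A few symbols outside the lists that passed 2-fold are named here, chosen after their values were seen. TYROBP, the signaling adaptor DAP12, had 84.8 in unstimulated pMA and 294 after TNF-α, a log2 ratio of 1.57 with its other probe at 1.73. CTSS, the lysosomal protease cathepsin S, went from 360 to 905 (1.10), but its 10 probes ranged from 0.58 to 1.10. SPP1, the secreted phosphoprotein osteopontin, went from 5157 to 25526 (2.08) with 4 probes from 2.08 to 2.44. CASP1, the caspase that processes interleukin 1β, was dim in unstimulated pMA and had 66.7 after TNF-α, a log2 ratio of at least 1.54. The 4 leukocyte markers with a ratio had a median of -0.14, with 3 below 0 and none past 2-fold. HSD11B1, which regenerates active glucocorticoid, went from 110 to 331 (1.37) with 5 probes from 1.14 to 1.72, and HK2, hexokinase 2, from 76.4 to 211 (1.24).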
